A study of Homo sapiens with 9 samples.

Results

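The genes described are keratins, the proteins of the intermediate filaments of epithelial cells, in H2009, an established line of human lung adenocarcinoma cells. They were taken from a list of 10 keratin genes named by type, though chosen with earlier results of these data known. It held 5 grouped as simple epithelial (KRT7, KRT8, KRT18, KRT19 and KRT80) and 5 grouped as basal or squamous (KRT5, KRT6A, KRT15, KRT17 and KRT23). Of these, 8 were analysed, among 23931 genes tested in all; KRT6A and KRT17 were not analysed here, which leaves 3 basal or squamous members. All cells carried CRISPR activation, in which a Cas9 without nuclease activity, fused to the activating domains VP64, p65 and Rta, is brought to a site by a guide RNA. Cells of the first group held sgRNA-A and cells of the second sgRNA-B, both directed at the microRNAs of the 14q32 locus, and control cells held an empty guide vector; all were grown under blasticidin selection. Each group had 3 arrays, described as biological replicates of 1 clone, so an effect of a guide cannot be told apart from a property of its clone. The comparisons address how far the keratin makeup of these cells differed once 14q32 microRNAs had been activated.

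Keratins form filaments only as pairs of an acidic type I chain and a basic type II chain. KRT8 (type II) and KRT18 (type I) make up the basic pair of simple epithelia, to which KRT7 and KRT19 are added in ducts and airways, and KRT7 is a common marker of lung adenocarcinoma. KRT5 and KRT15 mark the basal layer of stratified epithelia and basal airway cells. Keratin filaments end at desmosomes, where desmoplakin ties them to the cadherins that join neighbouring cells, and at hemidesmosomes, which hold the cell to its matrix.

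Levels are log2 values of probe sets on Affymetrix arrays, 1 probe set per gene, and the number of arrays limits their precision. Correlations between arrays ran from 0.997 to 0.998 within groups. On the second principal component (21.8% of the variance) the sgRNA-A array numbered 3 lay at 19.0, while the other 8 ran from -12.9 to 6.75. A silent level of 4.44 log2 units was set as the value below which 95% of 355 olfactory receptor genes lay. All 7 epithelial markers (among them EPCAM and CDH1) and the lung lineage factor NKX2-1 lay above it, as did 3 of 7 lung lineage genes in all; NAPSA and SFTPB did not. Above it also lay 1 of 7 fibroblast, 1 of 6 endothelial and 1 of 5 measured leukocyte markers. Of 5 measured basal airway markers, 4 lay above it (KRT14, NGFR, DLK2 and SNAI2), and KRT5 did not. SNAI2 had a mean of 10.9, while KRT14, NGFR and DLK2 lay closer to the silent level, at means of 5.16, 4.81 and 5.14. TP63, also listed as such a marker, was not among the genes analysed. No fibroblast, endothelial, leukocyte or basal airway marker measured changed in any comparison, while 1 epithelial marker, MUC1, did.

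With sgRNA-A, 1 of the 8 keratins changed: KRT7 fell, to 0.880 times the control level. The other 7 did not pass the test, which was limma's moderated test with Benjamini-Hochberg adjustment over all genes at an adjusted p below 0.05; 2.18% of all genes passed it in this comparison, and 4 of the 8 keratins had an unadjusted p below 0.05, as did 13.4% of all genes. With sgRNA-B, 0 of the 8 passed limma's test, against 3.07% of all genes, and 3 had an unadjusted p below 0.05, against 14.7%. For the mean of both guides against control, KRT7 again fell and 7 did not pass, against 3.57% of all genes. The effects with sgRNA-A and sgRNA-B differed for 0 of the 8 keratins by limma's test; 2 had an unadjusted p below 0.05, and of all genes 0.104% were called and 10.5% had such an unadjusted p. Both guides were set against the same 3 control arrays. In whole cultures, fewer cells of a type and less RNA per cell cannot be told apart.

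**Figure D1:**
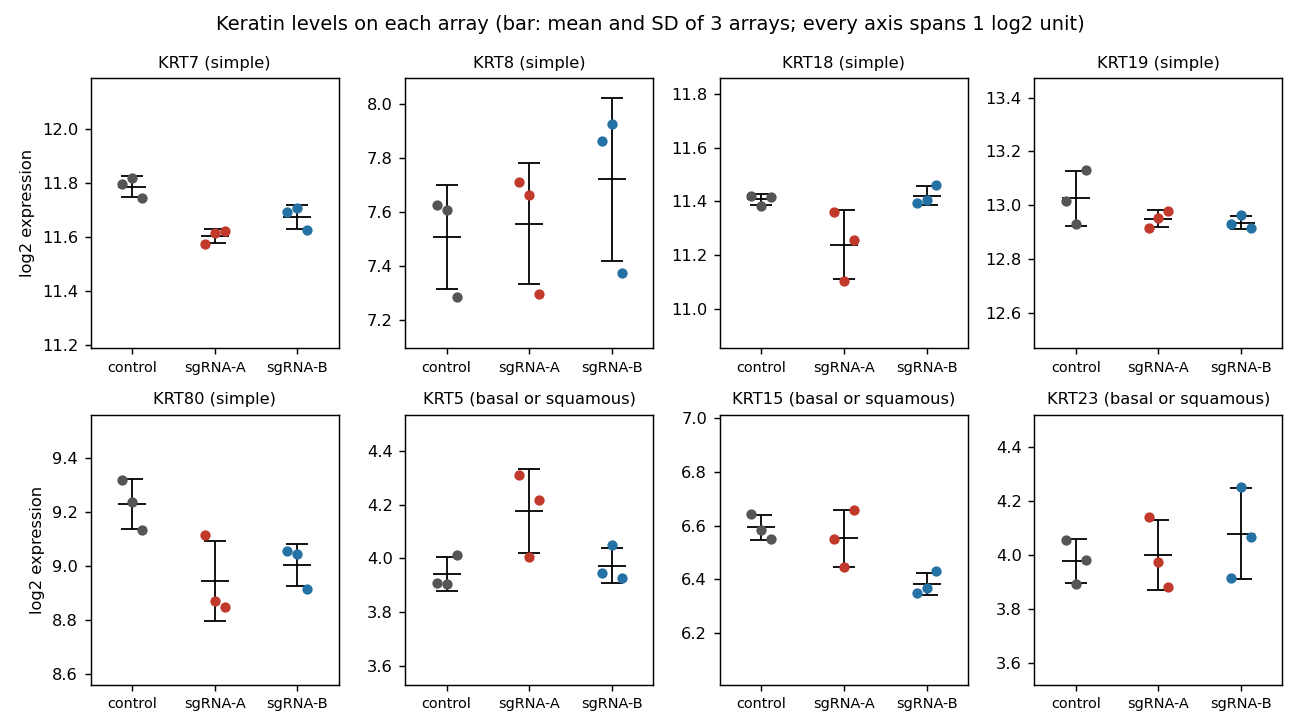
Log2 expression of the 8 keratins on each array, by group (x axis), with points for single arrays and bars for the mean and SD of 3 arrays; every vertical axis spans 1 log2 unit. The KRT7 and KRT80 arrays of both guides lie below all control arrays, and 1 array of each group is low for KRT8.

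KRT7, a type II keratin of simple and glandular epithelia, measured 11.79, 11.82 and 11.75 log2 units on the control arrays. With sgRNA-A it measured 11.57, 11.62 and 11.62, and with sgRNA-B 11.69, 11.71 and 11.62. All arrays of both guides were lower than every control array, and the sgRNA-A arrays were also lower than those of sgRNA-B, by 0.0039 units at the nearest pair. The mean was 11.79 ± 0.04 (SD, n = 3) in control cells and 11.60 ± 0.03 with sgRNA-A, a log2 fold change of -0.18 (SE 0.036, adjusted p = 0.0170, limma). With sgRNA-B the mean was 11.67 ± 0.04 and the log2 fold change -0.11 (SE 0.036), which did not pass (adjusted p = 0.119, limma). The difference between the guides was -0.071 log2 units, with a 95% interval of -0.15 to 0.0052, and did not pass either (adjusted p = 0.508, limma). For the mean of both guides the log2 fold change was -0.15 (SE 0.031, adjusted p = 0.0161, limma).

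The KRT7 call with sgRNA-A was small in size and rested on little spread: 6.94% of all genes varied less between arrays of a group. It held without the array that stood apart, sgRNA-A replicate 3 (-0.19, adjusted p = 0.0479, limma). It was not called without the variance trend of the model (adjusted p = 0.0873), nor without sgRNA-A replicate 1 (adjusted p = 0.0734, limma), control replicate 1 (0.0769) or control replicate 2 (0.0512). For the mean of both guides it was not called without control replicate 1 (0.0889) or control replicate 2 (0.0620). The log2 fold change with sgRNA-A stayed between -0.20 and -0.17 when any 1 array was left out. Among 13811 genes above the silent level, those whose values about their own mean followed KRT7 most closely over the 9 arrays were VPS9D1, MRTFB and GSR. Their root mean square differences from KRT7 were 0.027, 0.031 and 0.032 log2 units. The median over these genes was 0.14, but the named genes were picked as the closest, so they lie below it by selection. KRT7 itself varied by a root mean square of 0.081 about its mean, which is also how far a gene without any variation would lie from it.

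KRT80, a type II keratin of many epithelia that is grouped here with the simple types, measured 9.32, 9.24 and 9.13 log2 units in control cells. It measured 9.12, 8.87 and 8.85 under sgRNA-A and 9.05, 9.04 and 8.92 under sgRNA-B. No array of either guide reached the lowest control array, though the nearest sgRNA-A array lay 0.017 units under it. KRT80 had the most negative log2 fold change of the 8 keratins in both comparisons. It was -0.29 with sgRNA-A (SE 0.076, adjusted p = 0.0779) and -0.23 with sgRNA-B (SE 0.076, adjusted p = 0.149). Neither passed limma's test. For the mean of both guides the value was -0.26, with a 95% interval of -0.40 to -0.11 and an adjusted p of 0.0508 in limma, just outside the threshold. Without sgRNA-A replicate 1 it would pass, at 0.0138 for the mean of both guides and 0.0279 for sgRNA-A.

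Arrays that did not overlap were common in these data. With sgRNA-A, 3 of 8 keratins (KRT7, KRT18 and KRT80) had all arrays below all control arrays, as did 8.78% of all genes. With sgRNA-B these were 3 of 8 (KRT7, KRT80 and KRT15), against 10.5% of all genes. KRT7 and KRT80 alone among the 8 had all 6 activated arrays below the controls, a pattern of 4.18% of all genes. In the other direction, 0 of the 8 keratins had all arrays of a guide above the controls. The share of all genes lying above is not given here, so no direction of the keratins can be read from this 0.

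KRT8 and KRT18, partners in simple epithelial filaments, differed in how their arrays spread. KRT8 measured 7.63, 7.61 and 7.28 log2 units on control replicates 1 to 3. With sgRNA-A it measured 7.71, 7.66 and 7.30, and with sgRNA-B 7.86, 7.93 and 7.37. The array numbered 3 was the low one in every group: these 3 arrays lay between 7.28 and 7.37, and the other 6 between 7.61 and 7.93. Such a gap below the other arrays was seen at 247 of 23931 genes (1.03%), and among the 8 keratins only at KRT8. Its spread within groups was wider than that of 97.3% of all genes, and its log2 fold changes, 0.050 with sgRNA-A (95% interval -0.27 to 0.37) and 0.21 with sgRNA-B (-0.11 to 0.54), did not pass (adjusted p = 0.933 and 0.575, limma).

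KRT18 measured 11.42, 11.38 and 11.42 log2 units in control cells, 11.36, 11.10 and 11.26 under sgRNA-A and 11.39, 11.41 and 11.46 under sgRNA-B. The sgRNA-A arrays were the 3 lowest of all 9 and spread over 0.26 units, while the sgRNA-B arrays overlapped the controls. Its log2 fold change was -0.17 with sgRNA-A (SE 0.053, adjusted p = 0.143) and 0.012 with sgRNA-B (SE 0.053, adjusted p = 0.952), and the difference between the guides was -0.18 (adjusted p = 0.255); none of these passed limma's test. Without sgRNA-A replicate 1, KRT18 would be called with sgRNA-A (adjusted p = 0.0448, limma). The number 3 arrays of KRT18 were not low.

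**Figure D2:**
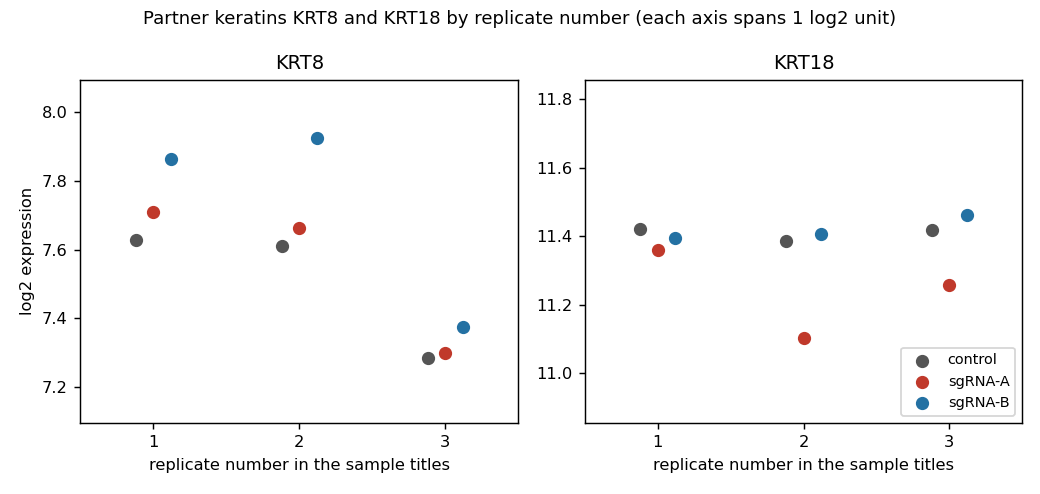
Log2 expression of KRT8 (left) and KRT18 (right) on each array, by the replicate number in the sample titles (x axis) and coloured by group; each vertical axis spans 1 log2 unit. The 3 arrays numbered 3 lie between 7.28 and 7.37 for KRT8, below the other 6, while KRT18 has its lowest values on sgRNA-A arrays.

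KRT19, an acidic keratin without the usual tail domain, measured 13.02, 12.93 and 13.13 log2 units in control cells. It measured 12.92, 12.96 and 12.98 under sgRNA-A and 12.93, 12.96 and 12.92 under sgRNA-B. The groups overlapped, since control replicate 2 lay within the range of both guides. Its log2 fold changes were -0.075 with sgRNA-A (95% interval -0.17 to 0.016) and -0.090 with sgRNA-B (-0.18 to 0.0013), and they did not pass (adjusted p = 0.488 and 0.347, limma). The highest value of any probe set was 13.8, so KRT19 lay near the top of the measured range, and whether the arrays resolved differences there was not tested.

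Of the basal or squamous keratins, KRT5 and KRT23 lay below the silent level on all 9 arrays. KRT5, the type II keratin of basal cells, measured 3.91, 3.91 and 4.01 log2 units in control cells, 4.31, 4.01 and 4.22 under sgRNA-A and 3.95, 4.05 and 3.93 under sgRNA-B. Its log2 fold change of 0.23 with sgRNA-A did not pass (adjusted p = 0.153, limma), and the lowest sgRNA-A array was under the highest control array. The value would pass only without sgRNA-A replicate 2 (adjusted p = 0.0413, limma). KRT23, a type I keratin grouped here with the basal or squamous types, ran from 3.89 to 4.06 in control cells. It ran from 3.88 to 4.14 under sgRNA-A and from 3.92 to 4.25 under sgRNA-B. Its log2 fold changes were 0.023 and 0.10 (adjusted p = 0.951 and 0.671, limma), and its groups overlapped.

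KRT15, a type I keratin of basal cells, was the 1 analysed basal or squamous member above the silent level. It measured 6.64, 6.58 and 6.55 log2 units in control cells and 6.55, 6.45 and 6.66 with sgRNA-A, which overlapped. With sgRNA-B it measured 6.35, 6.37 and 6.43, below every array of the other groups. The log2 fold change was -0.040 with sgRNA-A (adjusted p = 0.912) and -0.21 with sgRNA-B (SE 0.093, adjusted p = 0.306), and the difference between guides 0.17 (adjusted p = 0.542); none passed limma's test.

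**Figure D3:**
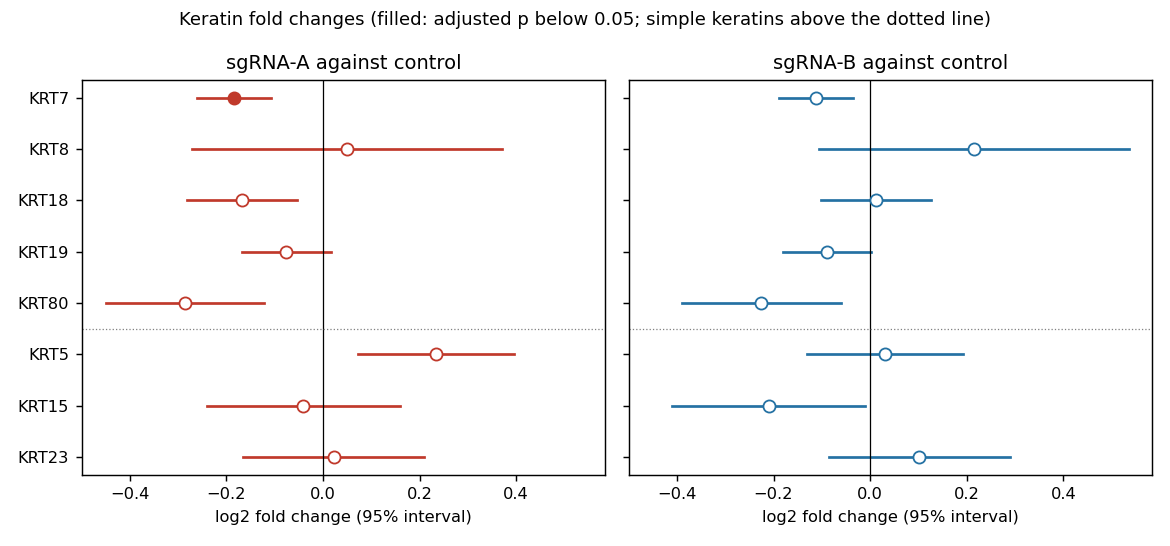
Log2 fold change (x axis) of each keratin with sgRNA-A (left) and sgRNA-B (right) against control, with 95% intervals of the fit; filled points passed limma's test and simple keratins stand above the dotted line. KRT7 with sgRNA-A is the filled point, at -0.18, and KRT8 has the widest interval.

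By type, 4 of 5 simple keratins had a log2 fold change below 0 with sgRNA-A (median -0.17) and 3 of 5 with sgRNA-B (median -0.090). The medians over all genes were 0.0036 and -0.0039. Of the 3 basal or squamous keratins, 1 lay below 0 with each guide, KRT15, and the medians were 0.023 and 0.031. These medians are the values of KRT23 and KRT5, both below the silent level, so the types cannot be compared by them. No test was made of the types against each other. The 95% intervals, which are not adjusted for the number of genes, bound the sizes that these arrays leave possible: among the 8 keratins the bound farthest from 0 was 0.45 log2 units with sgRNA-A, for KRT80, and 0.54 with sgRNA-B, for KRT8.

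The keratins of types I and II lie in clusters on chromosomes 17 and 12 in RefSeq's annotation of GRCh38.p14, except that KRT18, a type I gene, stands next to KRT8 on chromosome 12. Besides the 8, the arrays measured 41 other keratin genes, of which 8 lay above the silent level. KRT80 and KRT7 were the first and second of 22 measured keratin genes in order along chromosome 12. The next measured keratin genes after them, KRT83 and KRT85, had log2 fold changes of 0.046 and 0.065 under sgRNA-A and 0.18 and 0.078 under sgRNA-B, none of which passed limma's test. KRT83, at a mean of 3.85 over the 9 arrays, lay below the silent level, which limits what it can show, and KRT85, at 5.12, lay above it.

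Among the other 41 keratins, 0 passed limma's test with sgRNA-A and 1 fell with sgRNA-B. This is near the share of all genes called, 2.18% and 3.07%, so the list does not stand out by its count. In limma 7 with sgRNA-A and 5 with sgRNA-B had an unadjusted p below 0.05, against 13.4% and 14.7% of all genes. The gene that fell was KRT78, a type II keratin of stratified epithelia. It measured 5.02, 5.04 and 5.25 log2 units in control cells, 4.80, 4.73 and 4.75 under sgRNA-A and 4.52, 4.50 and 4.75 under sgRNA-B, so all activated arrays lay below the controls. Its log2 fold change was -0.51 with sgRNA-B (SE 0.10, adjusted p = 0.0162, limma) and -0.34 with sgRNA-A (adjusted p = 0.125). The sgRNA-B call was lost without sgRNA-B replicate 1 or 2 or control replicate 3 (adjusted p up to 0.0780, limma). KRT78, at a mean of 4.82 over the 9 arrays, lay little above the silent level of 4.44, which limits what it can show. KRT13, a keratin of stratified mucosa, was well above the silent level, at 10.52 ± 0.14 in control cells, 10.51 ± 0.09 under sgRNA-A and 10.50 ± 0.15 under sgRNA-B, and its groups overlapped. KRT14, the usual partner of KRT5, measured 5.32 ± 0.06, 5.00 ± 0.19 and 5.15 ± 0.18, and KRT16, a keratin of stressed epidermis, 5.93 ± 0.18, 5.45 ± 0.18 and 5.65 ± 0.17, in the same order. Neither passed with either guide (KRT16 with sgRNA-A: log2 fold change -0.48, adjusted p = 0.0981, limma). KRT14 and KRT16 are close in sequence, and KRT8, KRT18 and KRT19 have processed pseudogenes, so signal shared between such copies cannot be separated with these values.

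Lists of genes that work with keratins were counted in the same way, beside the background over all genes: 2.18% called and a median of 0.0036 with sgRNA-A, 3.07% called and a median of -0.0039 with sgRNA-B. Of 14 desmosome genes, 2 fell, 0 rose and 12 did not pass with sgRNA-A (median log2 fold change -0.054), and 4 fell, 0 rose and 10 did not pass with sgRNA-B (median -0.098). The desmosomal cadherin DSC2 measured 10.86, 10.84 and 10.94 log2 units in control cells, 10.38, 10.36 and 10.23 under sgRNA-A and 10.44, 10.36 and 10.52 under sgRNA-B. It fell by 0.56 with sgRNA-A (adjusted p = 0.000196) and by 0.44 with sgRNA-B (adjusted p = 0.000785, limma), and held both calls when any 1 array was left out. PERP, a desmosomal membrane protein, also fell with each guide, but was not called with sgRNA-A when any 1 of the 9 arrays was left out, nor in 6 of 9 such fits with sgRNA-B (adjusted p up to 0.146 and 0.161). The plakophilin PKP1 fell by 0.53 with sgRNA-B, a call lost when replicate 1 or 3 of sgRNA-B, or control 2 or 3, was left out, and the cadherin DSG2 fell by 0.17, a call lost in 7 of 9 such fits (adjusted p up to 0.0994 and 0.132, limma). PKP1 was not called with sgRNA-A, where its mean was 6.47 against 6.92 in control cells.

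Of 15 plakins and filament-binding genes, 1 fell with sgRNA-A (median -0.041) and 3 with sgRNA-B (median -0.098), and 0 rose. Desmoplakin, DSP, which ties keratins to the desmosome, fell by 0.26 with sgRNA-B (adjusted p = 0.00677, limma) and held its call when any 1 array was left out. With sgRNA-A its log2 fold change was -0.13 (adjusted p = 0.202). The hemidesmosomal plakin DST fell by 0.19 under sgRNA-A and 0.29 under sgRNA-B; the former call was lost without any 1 of the sgRNA-A arrays or control replicate 1 (adjusted p up to 0.0830, limma), and the latter held. Plectin, PLEC, fell by 0.20 with sgRNA-B, a call lost in 5 of 9 fits with 1 array left out (adjusted p up to 0.149, limma).

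Among 15 other intermediate filament genes, 1 rose with sgRNA-A (VIM) and 0 with sgRNA-B. In limma 2 with sgRNA-A and 3 with sgRNA-B had an unadjusted p below 0.05, against 13.4% and 14.7% of all genes. Vimentin, the filament protein of mesenchymal and many cultured cells, ran from 8.92 to 9.03 log2 units in control cells, from 9.16 to 9.31 under sgRNA-A and from 9.07 to 9.21 under sgRNA-B. All activated arrays were above the controls; the sgRNA-A call (log2 fold change 0.24, adjusted p = 0.0498, limma) was lost when any 1 of the 9 arrays was left out, with an adjusted p of 0.0610 to 0.198.

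Of 22 measured regulators of keratin genes, 3 fell with sgRNA-A (median -0.093) and 1 with sgRNA-B (median -0.070), and 0 rose; the single sgRNA-B call is near the share of all genes. The epithelial transcription factors GRHL1 (-0.77, adjusted p = 0.00512) and ELF3 (-0.35, adjusted p = 0.00575, limma) fell with sgRNA-A and held their calls when any 1 array was left out. With sgRNA-B neither was called, at means of 7.03 against 7.40 in control cells for GRHL1 and 9.03 against 9.13 for ELF3. Between the guides 0 of the 22 passed. For the mean of both guides GRHL1 and ELF3 were called (adjusted p = 0.00734 and 0.0198, limma), and lost these calls in 1 and 2 of 9 fits with 1 array left out. ETS2 fell with both guides, by 0.22 and 0.26, and lost the calls in 6 and 2 of 9 such fits (adjusted p up to 0.129 and 0.0526, limma). Of 18 squamous differentiation genes, 1 fell with each guide, S100A2, by 0.68 and 0.85; without control replicate 1 the sgRNA-A call was lost (adjusted p = 0.0537, limma). Of 6 measured hemidesmosome genes, 1 fell with sgRNA-A and 3 with sgRNA-B, DST among them each time. The others with sgRNA-B were PLEC and the laminin chain LAMB3. LAMB3 fell by 0.45 (adjusted p = 0.000282, limma) and held its call when any 1 array was left out. DST and PLEC were also counted among the plakins, so these lists overlap. With sgRNA-A LAMB3 was not called, at a mean of 10.50 against 10.62 in control cells. LAMB3 was called between the guides (adjusted p = 0.0128, limma), a call lost in 4 of 9 such fits (adjusted p up to 0.0901). Of 7 measured kinases, phosphatases, proteases and 14-3-3 adaptors that act on keratins, 0 passed limma's test with either guide. An unadjusted p below 0.05 was found for 2 under sgRNA-A and 3 under sgRNA-B, against 13.4% and 14.7% of all genes.

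**Figure D4:**
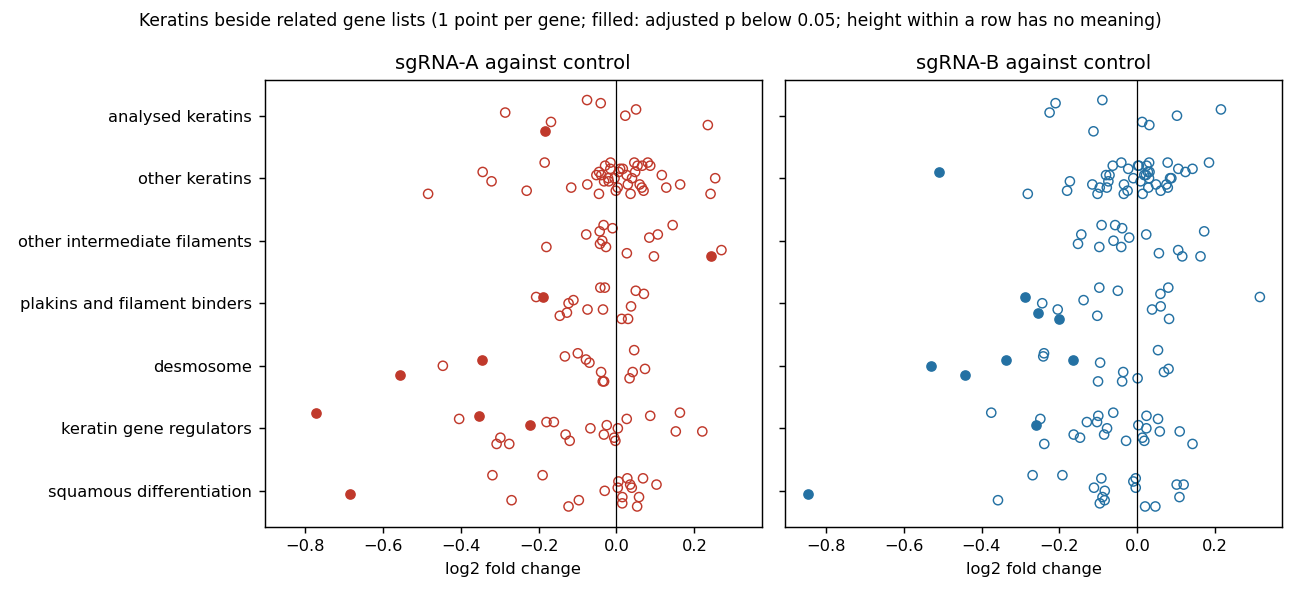
Log2 fold changes (x axis) with sgRNA-A (left) and sgRNA-B (right) against control, 1 point per gene, for the 8 keratins and for related gene lists (rows); filled points passed limma's test and the height within a row has no meaning. With sgRNA-A the analysed keratins hold 1 filled point and desmosome genes 2, and with sgRNA-B 0 and 4.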

How the data were processed

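The authors deposited log2 values, 1 per probe set and array, made with RMA, per the submitters' processing notes; the sources used here give no settings. This method equalises the distributions of the arrays, so shifts of all genes together are removed, and it compresses differences at low signal. The median was taken on sgRNA-A replicate 1 only, where it was 4.91. The annotation supplied gave 1 gene symbol to 23934 of the 24733 probe sets, several to 0 and none to 799. For 3 symbols with several probe sets the one with the highest mean was kept, which gave 23931 genes, without a filter. Groups and replicate numbers came from the sample titles. A linear model with a mean per group over all 9 arrays was fitted across all genes with limma 3.58.1 under R 4.3.3 (functions lmFit and eBayes, the latter with a variance trend), giving 6 residual and 7.27 prior degrees of freedom. P-values were adjusted by Benjamini-Hochberg over all genes, with a threshold of 0.05. The spread that p-values measure is that between cultures of a single clone per guide. Keratins, lists and markers were chosen with earlier results of these data known, so the lists are described by counts and medians and not tested. All analysed keratins were named, list members by adjusted p (up to 4 per list and comparison, if called), and the 3 genes most like each called keratin; KRT13, KRT14, KRT16, KRT83 and KRT85 were added after their values were seen. The fit was tested on simulated data. Alternatives left out each array, added the replicate number as a block or array weights, and changed the variance model, filter, normalization, probe set rule, genes tested or groups fitted. Same-numbered arrays did not pair: correlations of their deviations from group means ran from -0.15 to 0.14.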

Additional observations from a re-analysis of the deposited data

How the results depend on the processing

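KRT7 kept a log2 fold change below 0 in both comparisons with control under every alternative. The number of keratins called went from 1 to 0 with sgRNA-A and for the mean of both guides without the variance trend, where the adjusted p of KRT7 was 0.0873 and 0.0852. It went to 2 with KRT80 added, for both of these comparisons, with the replicate block (0.0288 and 0.0158) and with the dimmest 50% of genes removed, and for the mean of both guides also with robust variances, with the dimmest 30% removed and with repeated quantile normalization. The replicate block also ended calls of other genes named: VIM with sgRNA-A (adjusted p = 0.0794), and PLEC (0.0546) and DSG2 (0.0698) with sgRNA-B. With 1 array left out the number of keratins called ranged from 0 to 2 in both. It was 0 under every alternative with sgRNA-B and between the guides. All genes called with sgRNA-A numbered 522, against 786 with the dimmest 50% removed, 321 with only the compared groups fitted and 223 to 435 with 1 array left out. With sgRNA-B there were 735, and 353 to 735 with 1 array left out; for the mean of both guides 855, and 405 to 767; between the guides 25, against 39 with the dimmest 50% removed and 6 to 30. The cause was not tested, beyond fewer genes or arrays in those fits. Some uncalled log2 fold changes near 0 turned sign when 1 array was left out. With sgRNA-A these were KRT8 (-0.061 to 0.18, with -0.026 and -0.0029 also below 0), KRT15 (-0.093 to 0.012) and KRT23 (-0.048 to 0.081, with -0.019 also below 0). With sgRNA-B these were KRT18 (-0.0078 to 0.025) and KRT5 (-0.0068 to 0.067), and between the guides KRT19 (-0.00057 to 0.032) and KRT23 (-0.16 to 0.0078). Over all single keratins and alternatives, 588 values kept direction and call, 10 turned sign, 11 gained a call and 7 lost one. The fit of the compared groups alone has no counterpart for the mean of both guides, which uses all groups. Leaving out arrays for genes other than the listed keratins was chosen after seeing the data. Levels under the silent level limit what KRT5 and KRT23 can show.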
